A study of Mus musculus with 6 samples.

Results

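10 genes that mark mesangial cells and pericytes were followed through the MeDIP-seq peak lists of mouse primary mesangial cells. The genes were Pdgfrb, Pdgfra, Itga8, Des, Gata3, Cspg4, Thy1, Ren1, Rgs5 and Mcam, named by symbol, and all 10 were found among the 22367 protein-coding genes of the GENCODE vM1 annotation on chromosomes 1 to 19, X and Y. A peak was given to a gene where its summit lay in the gene or within 10 kb on either side. Overlapping peaks of different samples, by 1 bp or more, were merged into single regions. This gave 56 regions at these genes out of 170444 in the genome.

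MeDIP-seq pulls down sonicated genomic DNA with an antibody to methylated cytosine and sequences what was recovered, so that a peak marks a stretch where fragments carrying methylated CpG sites piled up above the surrounding DNA. All 6 samples were primary mesangial cells of Mus musculus (strain, sex and age not given in the sources used here), kept in medium with 25.5 mM glucose and 20% fetal bovine serum and used between passages 3 and 6. In 3 samples the cells received TGF-β1 at 10 ng/ml over 72 h (TGF-β1 group), and 3 samples were labelled as control. The study calls the samples of a group biological replicates, and the labels do not say whether these came from separate cultures or animals, so p-values measure the spread between these samples only. The control samples held 9407103 to 11494356 reads and 81473 to 100449 peaks, and the TGF-β1 samples 12634300 to 13291419 reads and 100379 to 105520 peaks. All TGF-β1 samples had more reads than any control sample, so in counts of peaks the effects of depth and of treatment cannot be told apart.

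Mesangial cells hold the capillary tuft of the glomerulus together, and they belong with pericytes and vascular smooth muscle to the mural cells that wrap small vessels. Their recruitment depends on platelet-derived growth factor, released by endothelial cells and bound by the receptor tyrosine kinase encoded by Pdgfrb. In mammalian genomes most CpG sites outside CpG islands are methylated, gene bodies included, whereas CpG-dense promoters are usually free of methylation whether or not the gene is used. The peak lists hold no expression values, so the identity of the cells was not checked here through the products of these genes.

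The sequences that carry the findings are printed below in mm9, 200 bases each on the plus strand, taken inside the region around its median summit, with every CpG in capitals because CpG is the site at which the captured methylation lies. The first is from the only promoter of the 10 with a peak in all 6 samples, and it starts upstream of that promoter's edge at chr9:56711911. The second starts at the downstream edge of the Thy1 promoter and runs on into intron 1. The third is from the region with the highest pileup at these genes, and the last 2 were called in all TGF-β1 samples and in no control sample. Each exon or intron label gives the place of the median summit, so a stretch can run past the ends of the exon.
Cspg4 promoter, chr9:56711842-56712041: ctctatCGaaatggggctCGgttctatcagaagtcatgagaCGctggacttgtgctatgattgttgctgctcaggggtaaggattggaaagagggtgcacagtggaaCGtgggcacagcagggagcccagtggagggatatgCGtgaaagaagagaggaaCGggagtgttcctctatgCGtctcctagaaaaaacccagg
Thy1 intron 1, chr9:43851927-43852126: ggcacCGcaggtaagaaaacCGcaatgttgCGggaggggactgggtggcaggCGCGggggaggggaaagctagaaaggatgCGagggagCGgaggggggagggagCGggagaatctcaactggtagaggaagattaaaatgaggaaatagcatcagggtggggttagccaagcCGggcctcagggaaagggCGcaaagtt
Pdgfra exon 3, chr5:75559644-75559843: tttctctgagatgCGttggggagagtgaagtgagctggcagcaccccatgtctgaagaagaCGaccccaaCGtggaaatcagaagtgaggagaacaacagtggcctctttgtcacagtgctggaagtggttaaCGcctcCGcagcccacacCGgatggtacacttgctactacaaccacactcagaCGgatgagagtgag
Des exon 3, chr1:75358802-75359001: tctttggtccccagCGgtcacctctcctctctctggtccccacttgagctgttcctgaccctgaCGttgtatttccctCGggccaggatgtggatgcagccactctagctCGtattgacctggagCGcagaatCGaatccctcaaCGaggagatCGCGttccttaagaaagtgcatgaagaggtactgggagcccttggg
Etnk2 exon 3, downstream of Ren1, chr1:135265307-135265506: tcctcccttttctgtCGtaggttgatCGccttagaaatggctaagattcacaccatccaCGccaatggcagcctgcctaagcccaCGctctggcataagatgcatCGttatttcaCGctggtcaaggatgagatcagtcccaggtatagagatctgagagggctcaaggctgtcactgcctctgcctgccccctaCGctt
The Cspg4, Pdgfra and Etnk2 stretches each hold 7 CpG sites, the Des stretch holds 9 and the Thy1 stretch holds 10.

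The promoters of most of these genes held no peak. A promoter was taken as the 1000 bp before to 500 bp after the 5′ end of the gene record, and 7 of the 10 had no summit in any sample, those of Pdgfrb, Pdgfra, Itga8, Des, Ren1, Rgs5 and Mcam. Of all protein-coding genes, 89.2% had a promoter without a summit, so a promoter without peaks is the common state and not a mark of these genes. The share was 93.3% among promoters with a CpG observed to expected ratio of at least 0.6, the ratio of CpG sites to the number that the base composition gives, and 86.7% among the others.

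The promoters without peaks differed widely in CpG content. The Des promoter held 84 CpG sites (observed to expected 0.61), the Mcam promoter 73 (0.53) and the Itga8 promoter 64 (0.67). The Ren1 promoter held 13 (0.13) and the Rgs5 promoter 21 (0.23). A stretch with few CpG sites gives the antibody little to bind, so the absence of a peak there says little about methylation.

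Cspg4, which encodes the NG2 chondroitin sulphate proteoglycan of the pericyte surface, had the only promoter peak common to all samples. Its promoter peak lay 969 bp upstream of the 5′ end (chr9:56711718-56712137) and was called in all 6 samples. The promoter window began at chr9:56711911, inside this region, so part of the region lay outside the window. The pileup, the number of extended reads stacked over the summit, was 34, 29 and 33 in control replicates 1, 2 and 3 and 36, 38 and 28 in TGF-β1 replicates 1, 2 and 3. The groups overlapped, with means of 32.0 ± 2.65 and 34.0 ± 5.29 (SD, n = 3). The fold enrichment over the local background was 9.03, 8.69 and 9.75 in control and 9.31, 9.23 and 6.95 in TGF-β1 samples, and the sample with the lowest value was TGF-β1 replicate 3.

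The other 2 promoters with a summit were called in few samples. At Thy1, which encodes a GPI-anchored surface glycoprotein of fibroblasts, pericytes and neurons, the summit lay 485 bp downstream of the 5′ end in intron 1 (chr9:43851927-43852217). The pileup reached 13 in the third control sample and 10 in the second TGF-β1 sample, and no peak was called in the other 4 samples. At Gata3, which encodes a zinc finger transcription factor needed in kidney and mesangial development, a summit 566 bp upstream of the gene record (chr2:9812063-9812409) was called in TGF-β1 replicate 3 alone, with a pileup of 14. The RefSeq start of Gata3, found by matching the RefSeq promoter sequence (GRCm38.p6) to mm9, lay 11434 bp downstream of the 5′ end of the GENCODE gene record. Around the RefSeq start Gata3 had no summit in any sample, and 8 of the 10 promoters then held none. A RefSeq promoter sequence was at hand for 8 genes, all except Pdgfrb and Thy1, and each matched mm9 once. The other 7 starts lay within 200 bp of the gene record. For Pdgfrb and Thy1 the start of the gene record was kept in this count.

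**Figure D1:**
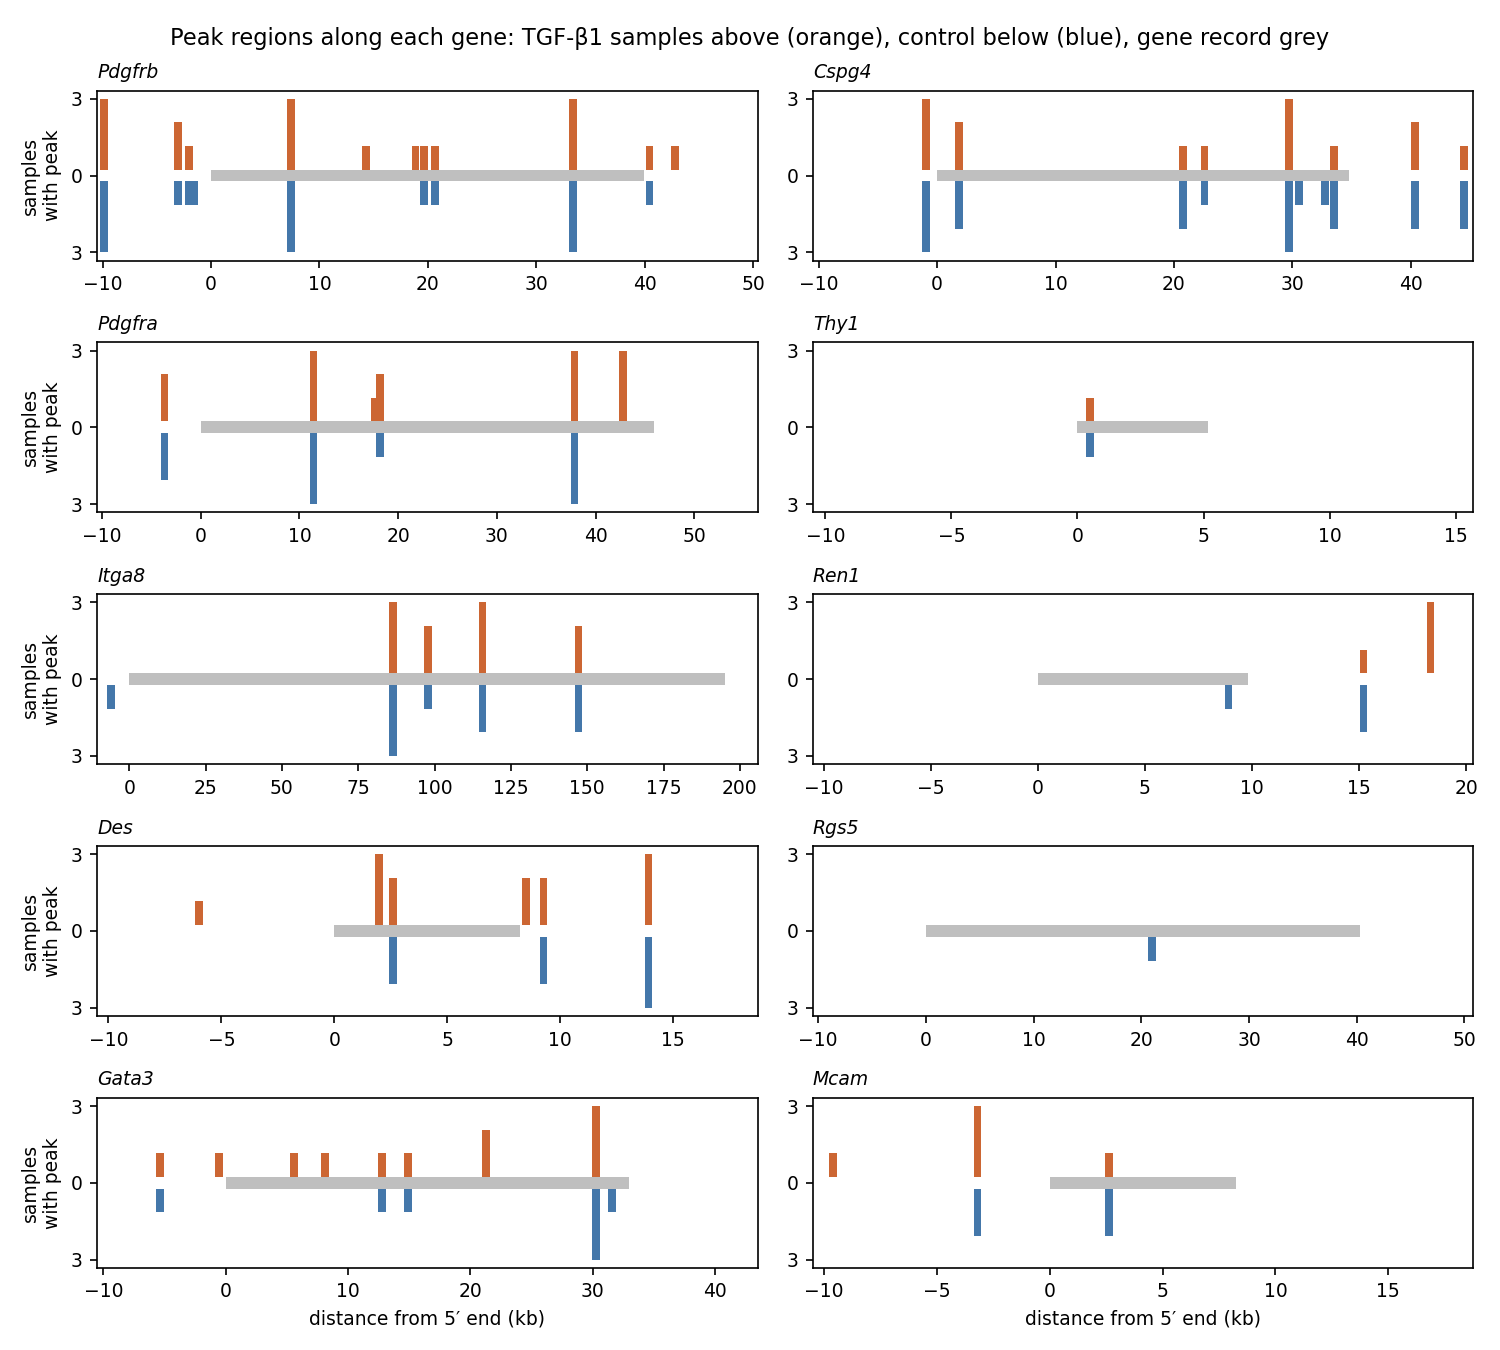
Peak regions at each gene by distance from the 5′ end of the gene record in kb, with the gene record in grey, the number of TGF-β1 samples with a peak above it (orange) and of control samples below it (blue), each up to 3. The region just upstream of Cspg4 was called in all 6 samples, and the orange bars without a blue partner that reach 3 are those in Pdgfra, Des and downstream of Ren1.

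Over the gene windows, the number of peaks set these genes far apart from each other. Scaled to window length, the 10 genes had a median of 5.49 peaks per 100 kb, the mean over the 6 samples, against 5.24 over all protein-coding genes. Des was densest at 11.8 peaks per 100 kb, higher than 90.7% of genes, followed by Cspg4 at 10.0 and Pdgfrb at 9.18. Rgs5 was sparsest at 0.276, followed by Thy1 at 1.32 and Itga8 at 1.47, the longest of the set, with a gene record of 195289 bp. The windows of Itga8 and Rgs5 also held the fewest CpG sites, 0.643 and 0.730 per 100 bp. Des had 1.78, and Gata3 had the most, 1.96, with 5.66 peaks per 100 kb. The part of CpG content in these densities was not tested. Of all protein-coding genes, 14.5% had no peak in any sample.

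None of the 10 genes had peak counts that separated the groups. A gene was counted as higher where every TGF-β1 sample was above every control sample, which held for 0 of 10 here and for 3.44% of protein-coding genes, and as lower in the reverse case, which held for 0 of 10 and for 0.295%. For the 10 genes, exact permutation tests (two-sided, over all 20 ways to divide the samples) gave p from 0.2 to 1, and no p under 0.1 is possible with 3 samples a group. The count of 0 depended on single samples. Without TGF-β1 replicate 1, Pdgfra, Des and Gata3 were higher, against 6.87% of all genes. Without control replicate 3, Des and Gata3 were higher (10.3% of all genes), and without control replicate 2 Pdgfra was (5.85%). Without control replicate 1, Cspg4 was lower, against 1.97% of all genes.

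**Figure D2:**
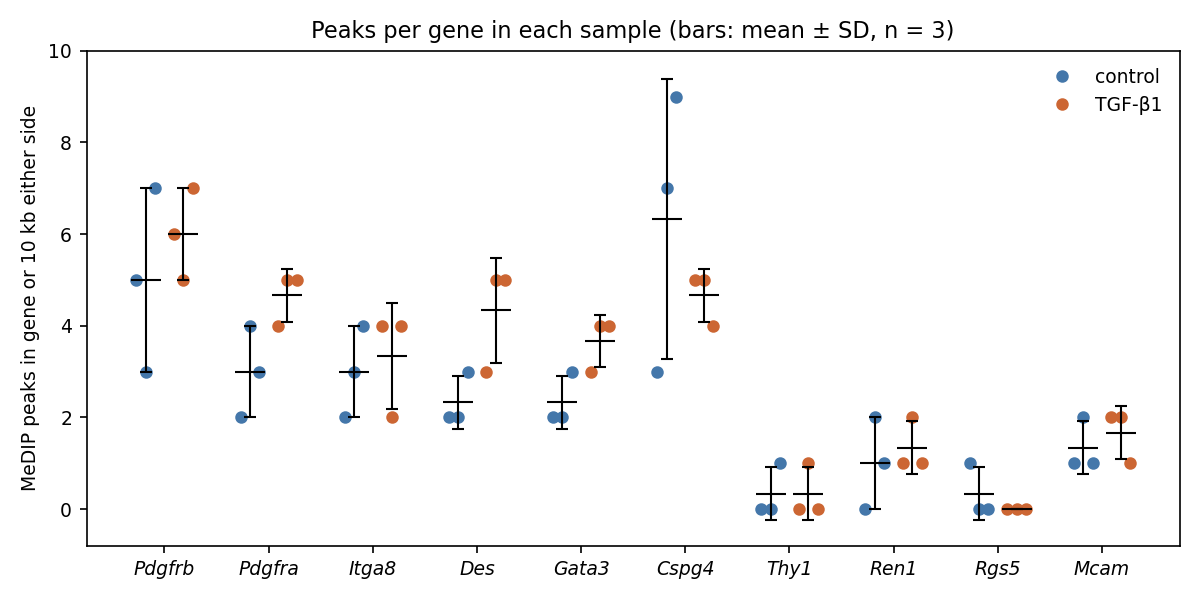
Number of MeDIP peaks in each gene or within 10 kb of it, by sample (points; control blue, TGF-β1 orange), with the mean and SD of the 3 samples of each group as black bars. The groups meet or overlap at all 10 genes, most closely at Pdgfra, Des and Gata3, where the highest control sample equals the lowest TGF-β1 sample.

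The PDGF receptors come first. Pdgfrb (chr18:61204804-61244715, plus strand) encodes PDGF receptor β, through which mesangial cells are recruited and driven to divide. It had 5, 3 and 7 peaks in control replicates 1, 2 and 3 and 6, 5 and 7 in TGF-β1 replicates 1, 2 and 3. The means of 5 ± 2 and 6 ± 1 (SD, n = 3) differed by less than the control SD (exact permutation p = 0.7). The difference of 1 peak was 0 without control replicate 2 and 2 without control replicate 3. Counting only peaks with a fold enrichment of at least 5 turned the difference to -0.667 peaks.

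Pdgfrb held the most regions of the set, 12, of which 3 were called in all 6 samples and 4 in a single sample. The strongest of the shared regions lay in intron 2, 7363 bp from the 5′ end, with pileups of 34, 24 and 34 in control and 36, 44 and 39 in TGF-β1 samples. Here the groups did not overlap in raw pileup, yet the TGF-β1 samples were deeper, and after centring each sample on its median the log2 fold change was 0.16 ± 0.19 (SE; limma, unadjusted p = 0.404), with values from 0.056 without TGF-β1 replicate 2 to 0.30 without control replicate 1. A second shared region in exon 18, had pileups of 30, 24 and 29 in control and 37, 23 and 33 in TGF-β1 samples. The third, at the upstream edge of the window, lay in intron 1 of the neighbouring gene Cdx1. Upstream of the 5′ end, 3 further regions between 1545 and 3079 bp away were called in 1 to 3 samples each, the nearest in control replicate 1 alone.

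Pdgfra (chr5:75548316-75594229, plus strand) encodes PDGF receptor α, typical of interstitial fibroblasts and of mesenchymal progenitors. It had 2, 4 and 3 peaks in control and 4, 5 and 5 in TGF-β1 samples, means of 3 ± 1 and 4.67 ± 0.577 (SD, n = 3; exact permutation p = 0.2). The groups met at 4 peaks, in control replicate 2 and TGF-β1 replicate 1. At a fold enrichment of at least 5 the direction turned here too, with a difference of -0.667 peaks.

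The exon 3 region of Pdgfra (chr5:75559352-75560082, 731 bp, 21 CpG sites) had the highest pileup at any of the 10 genes. The pileups were 43, 43 and 67 in control and 41, 50 and 44 in TGF-β1 samples, and control replicate 3 stood above the rest. Divided by the reads of each sample, they were 4.17, 4.57 and 5.83 per 1000000 reads in control and 3.22, 3.96 and 3.31 in TGF-β1 samples, which did not overlap. Scaling by reads also lowered the TGF-β1 group over all 41744 regions tested. The median log2 fold change was -0.0957, against -0.00471 after centring each sample on its median. The share of all regions that separated in this way was not counted. In the limma fit the region was lower in the TGF-β1 group by a log2 fold change of -0.37 ± 0.17 (SE), with an unadjusted p of 0.0363 and an adjusted p of 0.999 over all regions tested, so the difference did not pass the test. Pdgfra also had a shared region in intron 21, with pileups of 33, 32 and 30 in control and 33, 28 and 38 in TGF-β1 samples.

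The region in exon 23 of Pdgfra, the last exon (chr5:75591009-75591431, in the 3′ UTR, 17 CpG sites), was called in all 3 TGF-β1 samples and in no control sample. Its pileups were 16, 15 and 16, and its fold enrichments were 4.57, 5.08 and 4.41. The nearest other region was 4658 bp upstream, so no neighbouring control peak was split off from it. A region that is not called can still hold reads below the threshold, and these reads were not used here.

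Des (chr1:75356904-75365154, plus strand) encodes desmin, the intermediate filament of muscle and of activated mesangial cells. It had 2, 2 and 3 peaks in control and 3, 5 and 5 in TGF-β1 samples. The means were 2.33 ± 0.577 and 4.33 ± 1.15 (SD, n = 3; exact permutation p = 0.2), the largest difference among the 10 genes, and the groups met at 3 peaks. With peaks of at least 5-fold enrichment only, the difference was -0.333.

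In exon 3 of Des (chr1:75358766-75359101, 13 CpG sites) a region was called in all 3 TGF-β1 samples, with pileups of 21, 24 and 24 and fold enrichments of 4.61, 5.48 and 4.54, and in no control sample. The next region, in exon 5, began 238 bp further on and was called in control replicates 1 and 3, with pileups of 18 and 26, and in TGF-β1 replicates 2 and 3, with pileups of 22 and 24. Within the same gene body, then, control samples also had captured fragments a short way downstream. Beyond the 3′ end 3 regions fell inside the processed transcript Gm15179, and the farthest was called in all 6 samples. Its pileups were 22, 27 and 44 in control and 30, 31 and 30 in TGF-β1 samples, so the control samples spread around the TGF-β1 ones.

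Among the surface and adhesion proteins, Cspg4 (chr9:56712911-56747677, plus strand) had the widest spread between control samples. It had 3, 7 and 9 peaks in control and 5, 5 and 4 in TGF-β1 samples. The means were 6.33 ± 3.06 and 4.67 ± 0.577 (SD, n = 3; exact permutation p = 0.5), and control replicates lay on both sides of the TGF-β1 samples. The difference of -1.67 peaks was -3.33 without control replicate 1 and -0.333 without control replicate 3.

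Part of the control spread at Cspg4 lay in its long coding exons. Regions in intron 1 and 40335 and 44519 bp from the 5′ end also were called in control replicates 2 and 3 and not 1. Their GC content was 50.4% to 50.8%. A second intron 8 region was called in control replicate 1 alone. The 4 regions in exons 3 and 10, singled out after their values were seen, had a GC content of 58.1% to 59.4%, and all 4 were called in control replicate 3, with pileups of 46, 38, 27 and 47. Control replicate 2 and TGF-β1 replicate 2 had 2 of them each, TGF-β1 replicate 1 had 1, and control replicate 1 and TGF-β1 replicate 3 had 0. The shared region in intron 8, with a GC content of 48.97%, had pileups of 21, 20 and 32 in control and 29, 38 and 29 in TGF-β1 samples, a log2 fold change of 0.19 ± 0.21 (SE; limma, unadjusted p = 0.365), which ran from 0.035 without TGF-β1 replicate 2 to 0.32 without control replicate 3.

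Itga8 (chr2:12028259-12223547, minus strand) encodes integrin α8, which on mesangial cells binds matrix ligands such as nephronectin. It had 2, 3 and 4 peaks in control and 4, 2 and 4 in TGF-β1 samples (exact permutation p = 1). Of its 5 regions 4 were intronic and 1 lay 6050 bp upstream, called in control replicate 1 alone. The region called in all 6 samples lay in intron 13, had a GC content of 38.5%, the lowest among the shared regions, and held pileups of 17, 14 and 11 in control and 17, 15 and 16 in TGF-β1 samples. An intron 20 region was called in every sample except control replicate 1.

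Mcam (chr9:43942552-43950810, plus strand) encodes CD146, an adhesion molecule of endothelial and mural cells. It had 1, 2 and 1 peaks in control and 2, 2 and 1 in TGF-β1 samples (exact permutation p = 1). Its most often called region lay 3207 bp upstream, inside the lincRNA gene Gm10687, had the highest GC content of the 56 at 60.4%, and was called in every sample except control replicate 1, with pileups of 15 and 15 in control and 16, 18 and 15 in TGF-β1 samples. Thy1 (chr9:43851467-43856662, plus strand) had 1 region in its whole window, the promoter region described above.

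Gata3 (chr2:9778705-9811661, minus strand) had 2, 2 and 3 peaks in control and 3, 4 and 4 in TGF-β1 samples. The means were 2.33 ± 0.577 and 3.67 ± 0.577 (SD, n = 3; exact permutation p = 0.2), and the groups met at 3 peaks. Its peaks were scattered, since of 9 regions 4 were called in a single sample and 1 in all 6. The shared region lay in intron 5, with pileups of 23, 22 and 27 in control and 28, 29 and 26 in TGF-β1 samples, so the groups overlapped.

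Ren1 (chr1:135247087-135256902, plus strand) encodes renin, made by juxtaglomerular cells, which share an origin with mesangial cells. It had 0, 2 and 1 peaks in control and 1, 2 and 1 in TGF-β1 samples (exact permutation p = 1). The only region inside Ren1, in exon 8, was called in control replicate 2 alone, with a pileup of 18. The other 2 lay downstream inside Etnk2, which encodes an ethanolamine kinase. The one in Etnk2 exon 3 (chr1:135265244-135265585, 10 CpG sites) was called in all 3 TGF-β1 samples, with pileups of 15, 17 and 16 and fold enrichments of 5.42, 5.61 and 5.44, and in no control sample. It lay 18320 bp from the 5′ end of Ren1 and belongs to the Ren1 window by distance alone.

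Rgs5 (chr1:171585632-171625944, plus strand) encodes a regulator of G protein signalling that is a standard pericyte marker. It had a single peak in all 6 lists, in intron 1 in control replicate 1, with a pileup of 17 and a GC content of 37.9%, the lowest of the 56 regions. The other 5 samples had none.

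**Figure D3:**
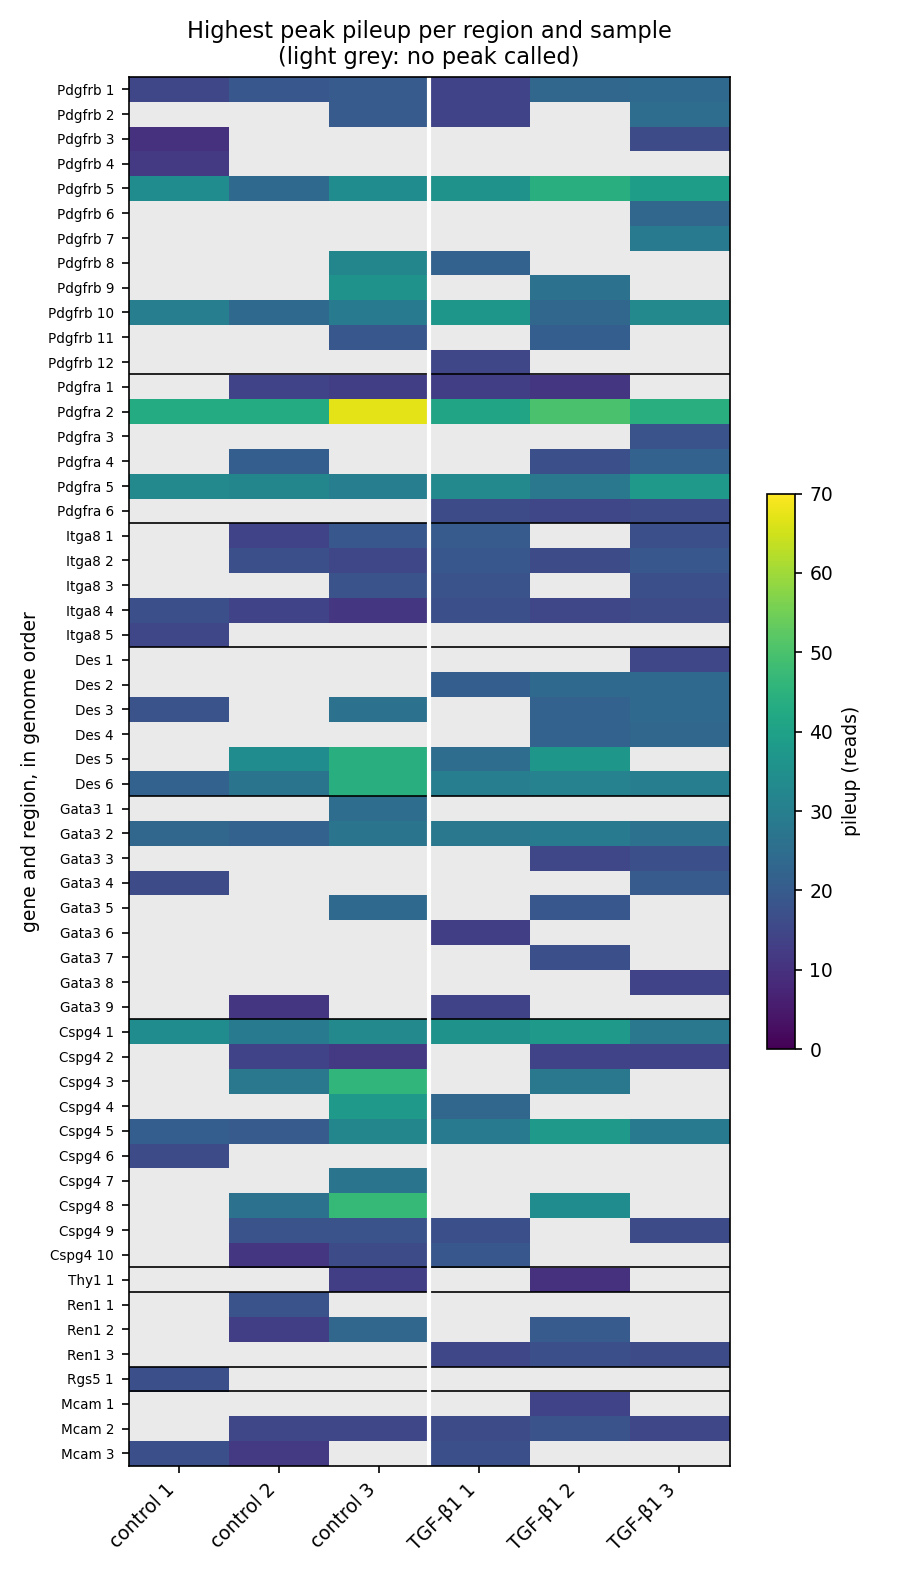
Highest pileup in reads (colour, from 0 to 70) of each of the 56 regions, in rows by gene and numbered in genome order, in the 3 control and 3 TGF-β1 samples, with light grey where no peak was called. The 10 rows without grey are the regions shared by all samples, the brightest cell is Pdgfra region 2 in control replicate 3 at 67 reads, and the rows Pdgfra 6, Des 2 and Ren1 3 are filled in the TGF-β1 columns only.

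Taking the 56 regions as a whole, 10 were called in all 6 samples (17.9%, against 24.5% of all regions) and 16 in a single sample (28.6%, against 27.3%). More TGF-β1 than control samples had a peak in 19 regions (33.9%, against 37.7% of all regions) and fewer in 12 (21.4%, against 22.5%), with 25 equal. By place, 15 had their median summit in a coding exon, 17 in an intron, 1 in a UTR, 2 in a part of the gene record outside its longest coding transcript, 12 upstream and 9 downstream. Their median GC content was 51.8%, against 47.9% for all regions.

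Regions confined to 1 group were few. The 3 regions described above in Pdgfra, Des and Etnk2 were called in all TGF-β1 samples and no control sample, 3 of 56 (5.36%), against 0.948% of all regions. No region was called in all control samples and no TGF-β1 sample, against 0.233% of all regions. These are calls at unequal depth, with a lowest called pileup of 8 in every control sample and of 9 to 10 in TGF-β1 samples, and the part of depth in the count was not tested. It was 3 without each control replicate in turn, where the share of all regions lay between 1.84% and 2.42%, and 3 with peaks of −log10 q of at least 5. Without TGF-β1 replicate 1 it was 5, against 2.26% of all regions.

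Where a peak was present in all 6 samples, the pileups could be compared directly. Of the 41744 such regions of the genome, 10 belonged to these genes. Limma on pileup called 0 of the 10, and 0 (0%) of all 41744, at an adjusted p under 0.01 with a log2 fold change over 2 in either direction. The study set these thresholds for differentially methylated regions, but applied them with DESeq to reads counted in the merged peaks of both groups. Such read counts are not in the peak lists. This comparison left out every region without a peak in 1 or more samples, and so can miss large changes. The 0 is thus no test of the study's regions. At an unadjusted p below 0.05 limma counted 1 of the 10, the Pdgfra exon 3 region, against 4.18% of all regions. The count was 0 without control replicate 3, without TGF-β1 replicate 1, without TGF-β1 replicate 3 and on fold enrichment. An alternative took regions called in at least 3 samples, with a missing pileup set to the sample's lowest. It called 0 of 29 regions of these genes and 0 of 98681 in all. Of the 29, 4 had an unadjusted limma p below 0.05, and the share of all regions at that limit was not counted. Among the regions shared by all samples, the smallest adjusted p was 0.999 for the 10 and 0.677 for all. The log2 fold changes of the 10 ran from -0.37 to 0.19, with 2 higher and 8 lower in the TGF-β1 group and a median of -0.08, against -0.00 over all regions, of which 49.2% were higher and 50.8% lower. Without control replicate 1, control replicate 2 or TGF-β1 replicate 3, the 10 regions split into 5 higher and 5 lower.

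**Figure D4:**
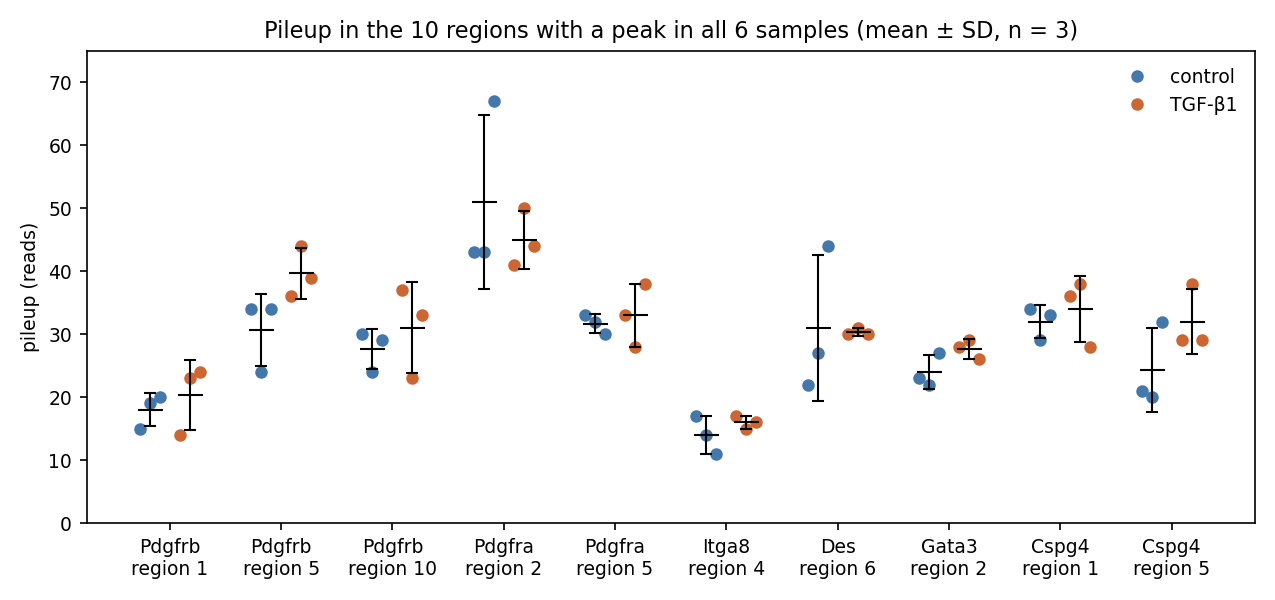
Pileup in reads in the 10 regions called in all 6 samples, by sample (points; control blue, TGF-β1 orange), with the mean and SD of each group of 3 as black bars, not scaled for depth. Control replicate 3 stands apart in Pdgfra region 2 at 67 reads and in Des region 6 at 44, and the groups overlap in all regions except Pdgfrb region 5.

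Summed over the 10 windows, the control samples had 18, 25 and 32 peaks and the TGF-β1 samples 28, 31 and 31. The means were 25 ± 7 and 30.0 ± 1.73 (SD, n = 3), a difference of 5 that is less than the control SD and a ratio of 1.20, where the ratio over all peaks of the samples was 1.13. Per 1000000 reads the order of the means turned, with 2.40 ± 0.567 in control and 2.33 ± 0.129 in TGF-β1 samples.

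The samples also differed in how often their GC-rich regions were called, with control samples at both ends. Of the 56 regions, 15 had a GC content of at least 55%, a limit chosen after the data were seen. Of these 15, control replicates 1, 2 and 3 had a peak in 3, 5 and 10, and TGF-β1 replicates 1, 2 and 3 in 7, 9 and 4. Over the 12393 regions of the genome above this limit, the shares were 13.1%, 46.1% and 69.3% in control and 44.0%, 59.3% and 30.8% in TGF-β1 samples, with the lowest and the highest both in control. In the 157204 regions below the limit the shares were 50.2%, 53.1% and 57.7% in control and 60.4%, 58.5% and 64.0% in TGF-β1 samples, so every TGF-β1 sample was above every control sample there. The GC-rich coding exons of Cspg4 were called in the order of this measure, and its part in the peak counts was not tested. The Des and Etnk2 regions called in TGF-β1 samples alone had GC contents of 56.2% and 55.6%. In the genome, regions of at least 55% GC made up 72 of the 1616 such regions. That was 0.581% of the 12393 GC-rich regions, against 0.979% of the 157204 regions below the limit.

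**Figure D5:**
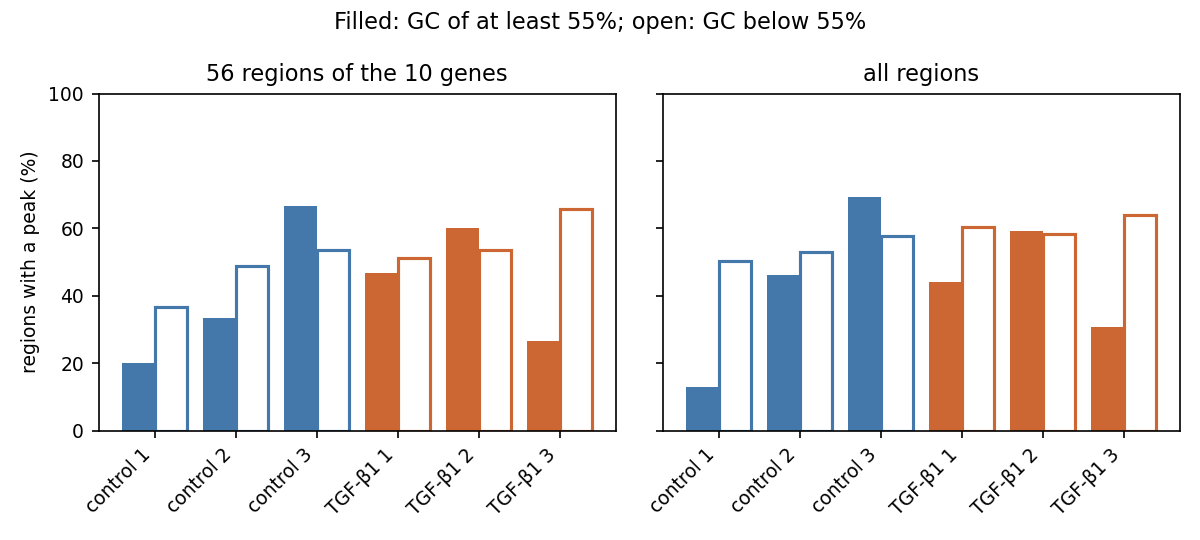
Share of regions with a peak, in percent, in each sample (control blue, TGF-β1 orange), for regions with a GC content of at least 55% (filled) and below it (open), at the 10 genes on the left and over all regions with reference sequence on the right. In GC-rich regions of the genome control replicate 1 is lowest at 13.1% and control replicate 3 highest at 69.3%, with the TGF-β1 samples between them.

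Other genes of the mural cell lineage and of PDGF signalling were counted in the same way. Of 20 such genes, among them the ligands Pdgfa, Pdgfb, Pdgfc and Pdgfd, the receptor Notch3 and the transcription factors Foxd1, Tbx18 and Tcf21, 0 had peak counts higher and 0 lower in all TGF-β1 samples. Over all protein-coding genes the shares were 3.44% and 0.295%. The promoter held no summit in 16 of the 20, against 89.2% of all protein-coding genes. The promoters of Notch3, a receptor of arterial mural cells, and of Tcf21, a factor of the kidney stroma and podocytes, had one in all 6 samples. Of all promoters, 2.24% did. Of their 188 regions 39 were called in all 6 samples, 1 in all TGF-β1 and no control samples, at Pdgfb, and 0 in the reverse case. Over all regions of the genome these shares were 24.5%, 0.948% and 0.233%. Limma gave an unadjusted p below 0.05 in 2 of the 39, both at Ebf1, against 4.18% of all regions tested, and an adjusted p below 0.05 in 0.

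Markers of the other cell types that a kidney culture could hold were counted too. The promoter held no summit in 4 of 5 podocyte genes, 5 of 5 tubule genes, 2 of 5 endothelial genes and 2 of 5 leukocyte genes, against 89.2% of all protein-coding genes. Of the leukocyte genes, Itgam had a promoter summit in all 6 samples, as did 2.24% of all promoters, and Ptprc, which encodes the leukocyte antigen CD45, in 5. Peak counts were higher in every TGF-β1 sample at 1 of 5 genes in each of the 4 lists, Podxl, Pecam1, Slc12a1 and Itgam, and lower at 0. Of all protein-coding genes, 3.44% were higher and 0.295% lower, and lists of 5 genes are too short to be set against these shares. Of 43 podocyte regions 3 were called in all TGF-β1 and no control samples, and 0 of the 45 endothelial, 61 tubule and 32 leukocyte regions were, against 0.948% of all regions. Limma gave an adjusted p below 0.05 in 0 regions of the 4 lists. Only regions called in all 6 samples were tested. It gave an unadjusted p below 0.05 in 1 of 10 endothelial and 1 of 14 tubule regions, against 4.18% of all regions tested. In the 10 podocyte and 5 leukocyte regions tested it gave 0.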

How the data were processed

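MeDIP-seq peak lists of 3 control and 3 TGF-β1 samples were used, grouped by the treatment label. The authors mapped reads to mm9 with BWA and ran MACS2 2.1.0.20150731 on each sample alone (q below 0.01, no input control), as the file headers and the study's methods state. The deposited pileup is a signal, counting the extended reads stacked at a summit, with no depth scaling. The deposited fold enrichment is a ratio to the local background. The deposited p-values and q-values are given as −log10. A peak list leaves out reads below the threshold, so weak signal could not be compared and a missing peak is not a value of 0.

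NCBIM37, which is mm9 under another name, and GENCODE vM1 gave sequence and annotation. Regions were the union of peaks overlapping by at least 1 bp, checked against bedtools 2.31.1. Of 170444 regions, 847 on unplaced sequence had no reference sequence and no GC content. Regions called in all 6 samples were compared with limma 3.58.1 in R 4.3.3 (a trend, log2 of the highest pileup, centred on each sample's median, Benjamini-Hochberg adjustment), which was tested on simulated data. Single counts were compared by exact permutation tests, done with the rest in Python 3.11.15. Depth ran from 9407103 to 13291419 reads per sample, which limits what could be called.

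The genes, the gene lists and the comparisons were chosen with earlier results of these data known. Regions named singly were those with a promoter summit, those seen in every sample of 1 group but in none of the second group, in each direction the 3 with the smallest limma p, and the strongest shared region of each gene. Other regions are named where a gene's count turned on them, after their values were seen. Sequence is not shown for Pdgfrb or the UTR of Pdgfra. Alternatives were stricter peaks, other windows, joins and scalings, samples left out in turn, and a replicate block.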

Additional observations from a re-analysis of the deposited data

How the results depend on the processing

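No alternative made limma call a region of the 10 genes, and 7 promoters without peaks became 5 to 8 under other windows, starts and left-out samples. Peak counts of the groups separated at 0 genes, and at 0 to 3 genes when a sample was left out (1 without control replicate 1 or 2, 2 without control replicate 3, 3 without TGF-β1 replicate 1), where fewer samples separate more easily. The regions of 1 group numbered 3, and 3 to 5 with a sample left out (5 without TGF-β1 replicate 1). The difference in summed peaks, 5, ranged from 1.5 without control replicate 1 to 8.5 without control replicate 3, and was reversed to -0.0678 per 1000000 reads. With the replicate block, 3 genes (Pdgfra, Des and Gata3) had more peaks in TGF-β1 in each of 3 same-numbered pairs, against 7.91% of all genes, where the exact sign-flip test allows no p under 0.25, and the summed difference was 5. The numbers in the labels were not shown to pair the samples, since their deviations correlated from -0.130 to 0.0432, and the block changed no other call.

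Des and Pdgfra, with the largest rises in peaks, were among the values that turned sign. Cspg4, with a difference of -1.67 peaks, and Gata3, with 1.33, kept their signs under every alternative. The difference was -0.333 at Cspg4 without control replicate 3, and 0.333 at Gata3 with fold enrichment of at least 5. Per 1000000 reads, Pdgfrb was at -0.00646, Itga8 at -0.0292 and Mcam at -0.00203 peaks. With fold enrichment of at least 5, Pdgfrb and Pdgfra were at -0.667 and Des at -0.333, and within 2 kb Ren1 and Mcam were at -0.333. On fold enrichment, the log2 fold change of Gata3 region 2 was 0.12. With a sample left out, differences in peaks ran from -0.167 to 1 at Itga8 and from -0.167 to 0.833 at Ren1. The log2 fold changes then ran from -0.21 to 0.14 at Pdgfrb region 1, -0.25 to 0.092 at Pdgfrb region 10, -0.26 to 0.20 at Itga8 region 4, -0.35 to 0.0014 at Des region 6, -0.077 to 0.052 at Gata3 region 2 and -0.26 to 0.010 at Cspg4 region 1. The cause was not tested.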
